A study of Rattus norvegicus with 12 samples.

Results

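The comparison described here sets rat nucleus pulposus cells that carried an shRNA against TonEBP and received TNF-a (shTon_TNF) against cells with neither, which carried a control shRNA vector and were left untreated (PLKO_CTR). Its members were taken from the sample titles: 3 shTon_TNF and 3 PLKO_CTR libraries, 6 of the 12 RNA-seq libraries of the series. The study sought the part of TonEBP in how disc cells respond to TNF-a, and this comparison asks which genes stand at the untreated control level, and which stand away from it, once both treatments are combined. Cells came from spines of Wistar rats, grew out of explants in DMEM with serum, and all groups were transduced with lentivirus, so PLKO_CTR cells also carry a vector and an shRNA. TNF-a was given at 50 ng/mL for the 24 h before RNA was collected. The other 2 groups of 3 libraries, TNF-a with the control vector (PLKO_TNF) and knockdown without TNF-a (shTon_CTR), are used to say where a gene lies between them. In each group the titles count sets 1, 2 and 3, and libraries were paired by set. Nothing in the labels tells what unites a set (donor rat, culture, date), so a p-value here speaks only of the scatter among these libraries.

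TNF-a is an inflammatory cytokine of degenerating discs. Its receptors switch on NF-kB, a family of transcription factors held in the cytoplasm by IkB inhibitor proteins, and NF-kB then raises genes for chemokines, cytokines and proteases as well as for its own inhibitors, which end the signal. TonEBP, the product of Nfat5, shares the Rel-type DNA-binding domain of NF-kB and is best known for raising osmolyte transporters and chaperones in cells under high salt, such as those of the disc core.

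Total reads on the genes listed in a deposited table (the larger sum where a library stands in more than 1) ran from 7160042 to 16861613 in the 6 libraries. On a common scale Nfat5 (ENSRNOG00000011879), the gene targeted by the shRNA, had 685, 1363 and 1818 normalised reads in sets 1 to 3 of PLKO_CTR and 1695, 499.7 and 232 in the libraries labelled shTon_TNF. It was lower in sets 2 and 3 and higher in set 1, so it goes against the label of the library labelled shTon_TNF set 1, and each direction below rests on the labels (log2 fold change -1.04, SE 0.73, adjusted p = 0.551, limma). Between shTon_TNF and PLKO_TNF the authors' deposited log2 fold change of Nfat5 was -0.03 (adjusted p = 0.987, DESeq2 per the submitters' notes). A lower average level of the targeted gene was thus not seen in the deposited comparison of the TNF-a groups. That average includes the library labelled shTon_TNF set 1, so it does not tell what sets 2 and 3 show. Skeletal muscle transcripts differed among sets: the summed level of 17 skeletal muscle genes was 68427, 24450.2 and 214.3 normalised reads in sets 1 to 3 of PLKO_CTR and 101855.5, 20124 and 266.5 in shTon_TNF, and 0 of the 17 passed between these groups in limma on 6 or 12 libraries, edgeR or DESeq2 (1 lower at an unadjusted p under 0.05). Of 19 nucleus pulposus genes 9 could be tested. The notochordal markers T, Noto, Shh, Krt18 and Krt19 are not analysed here, so the labelled cell type was not checked on them, and Krt8, a keratin of notochordal cells, had 209, 122 and 2278 normalised reads in PLKO_CTR. Of 17 leukocyte markers 4 could be tested (Cd14, Cd68, Cd74 and Itgax), with sums of 634.1, 426.2 and 310.0 in PLKO_CTR and 610.3, 769.7 and 446.6 in shTon_TNF. In such bulk cultures fewer cells of a type and less RNA per cell cannot be told apart.

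Few genes passed the test between doubly treated and untreated cells. Those that rose most include the protease gene Plau, its inhibitor gene Serpinb2 and the NF-kB feedback gene Tnfaip3, and those that fell most include Stc1 and Aldh3a1. Of 12299 genes tested, 20 passed (0.163%), 16 higher (0.13%) and 4 lower (0.0325%) in shTon_TNF. A gene is said to pass, to rise or to fall when limma on log2(normalised reads + 1) with the set as a block gave a Benjamini-Hochberg adjusted p under 0.05, and fold changes are on that log2 scale, which understates those of low genes. With TNF-a alone (PLKO_TNF against PLKO_CTR) 1221 of 12207 genes passed (10%, with 5.15% higher and 4.85% lower), and between the TNF-a groups (shTon_TNF against PLKO_TNF) 31 of 12244 did (0.253%, with 0.114% higher and 0.139% lower). When all 12 libraries shared 1 estimate of the spread, these shares were 5.65% and 3.61%. The first 2 comparisons share the PLKO_CTR libraries and the third shares libraries with both, so they are not independent. The count of 20 depends on the fit. It was 1003 of 12310 (8.15%, with 485 higher and 518 lower) in that fit on 12 libraries, and all 20 passed there too. It was 1818 without set 1, which holds the library whose Nfat5 level goes against its label, 422 without set 3 and 0 without set 2 (706 genes had an unadjusted p under 0.05 in limma there, against 1823 with all sets); such fits on 2 sets leave 1 residual degree of freedom. With edgeR 22 genes passed, 19 of them among the 20, and with DESeq2 474, the 20 included.

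Of the 24 tested genes of NF-kB subunits, inhibitors and adaptors 5 rose (Tnfaip3, Tnfaip2, Traf1, Nfkb2 and Nfkbia) and 0 fell, and their levels in shTon_TNF lay close to those in PLKO_TNF. Tnfaip3, which encodes the ubiquitin editor A20 that shuts the pathway down, had 438, 295 and 405 normalised reads in sets 1 to 3 of PLKO_CTR, 2561, 2131 and 3133 in PLKO_TNF and 2132, 2543 and 2374 in shTon_TNF. All shTon_TNF libraries lay above all PLKO_CTR libraries and within the range of PLKO_TNF, with a log2 fold change against PLKO_CTR of 2.65 (SE 0.21, adjusted p = 0.0336). Nfkbia, the gene of the inhibitor IkB-alpha, had 2076, 2318 and 4043 against 6726, 7136 and 13263. These groups do not overlap (1.68, SE 0.18, adjusted p = 0.0431, but 0.0554 with edgeR). Nfkb2, an NF-kB subunit gene, had 830.0, 668 and 976 against 3622, 2701 and 3236 (1.96, SE 0.18, adjusted p = 0.0336), again with no overlap. Traf1, an adaptor of TNF receptors, and Tnfaip2, a TNF-a-induced gene, were higher by 2.23 and 2.47. Between shTon_TNF and PLKO_TNF none of these 5 passed, and the differences there were -0.14 for Tnfaip3, 0.20 for Nfkbia, -0.09 for Nfkb2, -0.05 for Traf1 and 0.44 for Tnfaip2. Over the 24 genes the median log2 fold change was 0.45, against 0.01 over all genes tested, and 12 were higher and 3 lower at an unadjusted p under 0.05 (7.11% and 7.71% of all genes). In the fit on 12 libraries 10 were higher and 2 lower (3.94% and 4.21% of all genes), 4 and 0 passed with edgeR (0.146% and 0.0325%) and 9 and 1 with DESeq2 (1.98% and 1.87%). The 2 lower were Nfkbiz (-1.14), an atypical IkB gene, and the kinase gene Ripk1 (-0.46), which like Nfkbia were named after their values were seen.

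Promoters are shown because several of the genes that stayed high are known NF-kB targets, and 1 that did not, Il6, is one too. RefSeq promoters (GRCr8, 250 bases before to 50 after the start) were matched for 14 of the 20 genes that passed and for 37 of 57 genes back near the control level, described further on. The kB motif GGGNNTTTCC, on either strand, stood in 4 of the 14 and in 1 of the 37, against 1.53% of 33469 promoters of 300 bases. The AP-1 motif TGANTCA stood in 5 and 4 (7.33% of promoters), and the antioxidant-response motif TGACNNNGC in 3 and 3 (12.1%). The gene sets behind the 14 and the 37 also differ in direction. Of the 20 genes that passed 16 were higher, whereas of the 57 near the control level 32 had risen and 25 fallen with TNF-a. The motif counts were not split by direction, so they do not compare staying off with returning alone. The 120 bases before the start of each of the 5 genes with a kB match are printed on the gene's strand, 5′ to 3′, with kB matches in capitals. They lie at chr6:78597073-78597192 (minus strand), chr1:15543980-15544099 (minus), chr1:255108254-255108373 (plus), chr9:91837039-91837158 (plus) and chr4:5894576-5894695 (minus).
Nfkbia: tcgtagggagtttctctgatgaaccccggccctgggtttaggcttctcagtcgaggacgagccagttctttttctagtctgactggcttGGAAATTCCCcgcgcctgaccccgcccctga
Tnfaip3: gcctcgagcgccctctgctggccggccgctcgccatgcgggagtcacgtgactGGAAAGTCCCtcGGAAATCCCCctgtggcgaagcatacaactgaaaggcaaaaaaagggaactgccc
Nfkb2: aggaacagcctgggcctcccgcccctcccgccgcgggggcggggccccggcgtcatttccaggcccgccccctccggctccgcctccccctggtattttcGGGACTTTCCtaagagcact
Ccl20: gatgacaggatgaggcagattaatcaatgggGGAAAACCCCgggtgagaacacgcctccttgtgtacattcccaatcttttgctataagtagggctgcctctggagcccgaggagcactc
Il6: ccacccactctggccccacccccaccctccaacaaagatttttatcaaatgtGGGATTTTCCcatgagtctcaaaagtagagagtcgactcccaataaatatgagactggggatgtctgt
Tnfaip3 has a pair of kB matches. The match in Nfkbia and the first in Tnfaip3 overlap letters of the tonicity-element motif that TonEBP is known to bind (TGGAAANNNNC, in 5.45% of promoters), which stood in 4 of the 14 and 1 of the 37. A kB match on the opposite strand that stands after a T always spells the tonicity-element motif. The matches in Nfkbia and Tnfaip3 are of this kind and are counted under both motifs, whereas those in Ass1 and Ackr4 overlap no kB match. All of these are matches of letters and not sites shown to be bound in these cells.

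The other genes that rose encode urokinase and its inhibitor, a pair of chemokines, and enzymes and proteins of the cell surface and matrix. Plau, the gene of urokinase, which turns plasminogen into plasmin, had 547, 258 and 309 normalised reads in sets 1 to 3 of PLKO_CTR, 2791, 2419 and 1754 in PLKO_TNF, 866, 859 and 907 in shTon_CTR and 5332, 6772 and 5093 in shTon_TNF. Each shTon_TNF library lay above every library of the other groups. The log2 fold change against PLKO_CTR was 4.01 (SE 0.29, adjusted p = 0.0268), the highest among the 20, and that against PLKO_TNF was 1.32 (SE 0.18, adjusted p = 0.0356). Serpinb2, an inhibitor of urokinase, was higher by 3.28 (adjusted p = 0.0219), with 362, 271 and 68.7 against 2595, 2850.2 and 842 normalised reads. Ass1, argininosuccinate synthase, which remakes arginine, went from 83.5, 28.7 and 367 to 787, 249 and 3812 (3.22, SE 0.19, adjusted p = 0.0219). In Serpinb2 the groups do not overlap, whereas in Ass1 the lowest shTon_TNF library lies below the highest PLKO_CTR library and only the differences within sets agree in direction.

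The chemokine genes that passed were Ccl20, whose product draws lymphocytes and dendritic cells, and Cxcl16, a membrane-bound chemokine. Ccl20 had 2016, 1165 and 240.3 normalised reads in PLKO_CTR, 14184, 14474 and 3927 in PLKO_TNF and 7163, 7519 and 1279 in shTon_TNF. The shTon_TNF library was above PLKO_CTR and below PLKO_TNF in each set (log2 fold change 2.31 against PLKO_CTR, adjusted p = 0.0336, and -1.18 against PLKO_TNF, adjusted p = 0.0726). Cxcl16 followed the same order, with 1.90 (adjusted p = 0.0336) and -0.49 (adjusted p = 0.219).

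Plxnd1, a semaphorin receptor gene, had 74.7, 79.4 and 61.4 normalised reads in PLKO_CTR, 439, 142 and 325 in PLKO_TNF and 852, 383 and 510.2 in shTon_TNF. The shTon_TNF and PLKO_CTR libraries do not overlap, and in every set the order was PLKO_CTR, PLKO_TNF, shTon_TNF from low to high (2.93 against PLKO_CTR, adjusted p = 0.0336). The same order within every set was seen for Olr1, the receptor for oxidised LDL (2.17, named after its value was seen), and Abcg1, a cholesterol exporter gene (2.72). The difference from PLKO_TNF did not pass for Plxnd1 (1.01, adjusted p = 0.0798), Olr1 (1.15, 0.0607) or Abcg1 (1.76, 0.0726). Hr, a nuclear corepressor gene, also rose (2.75, adjusted p = 0.0336).

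**Figure D1:**
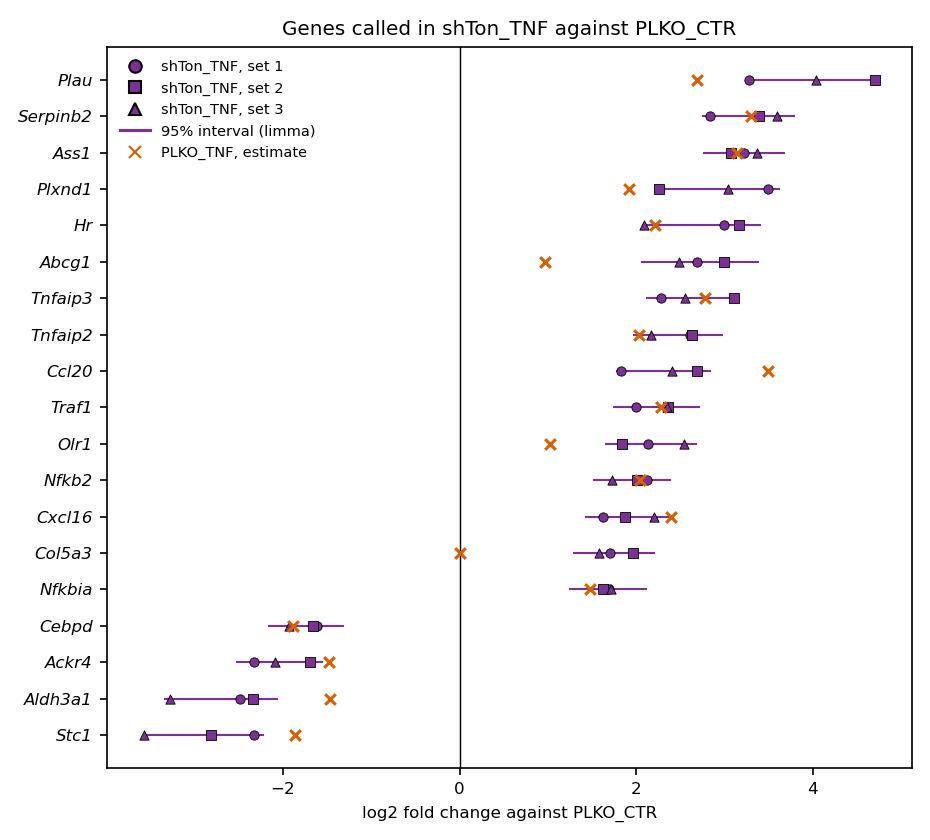
Log2 fold change against PLKO_CTR (x axis) of 19 of the 20 genes that passed in shTon_TNF against PLKO_CTR. Filled markers are the shTon_TNF libraries of sets 1 to 3, purple lines the limma 95% interval and orange crosses the estimate for PLKO_TNF; Plau, Abcg1 and Col5a3 stand to the right of their crosses and Ccl20 to the left.

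Of the 4 genes that fell, Stc1, the gene of the secreted glycoprotein stanniocalcin-1, had 769.7, 2679.8 and 191 normalised reads in sets 1 to 3 of PLKO_CTR and 153, 381 and 15.1 in shTon_TNF. Levels differ so much among sets that the groups overlap, but the library was lower within each set (log2 ratios -2.33, -2.81 and -3.58, estimate -2.91, SE 0.28, adjusted p = 0.0336). Aldh3a1, an aldehyde dehydrogenase gene, had -2.70 (adjusted p = 0.0336). Ackr4, a decoy receptor that takes up chemokines, had 858, 2266 and 1025 against 169.7, 697 and 239, with no overlap (-2.04, adjusted p = 0.0336). Cebpd, a transcription factor gene of the acute-phase response, had 1556, 2659 and 3702 against 507, 838 and 968, with no overlap (-1.74, SE 0.17, adjusted p = 0.0336). All 4 had also fallen with TNF-a alone, at -1.86, -1.47, -1.48 and -1.88 on the log2 scale, and none passed between the TNF-a groups. Every 1 of the 20 kept its direction without set 1, and its fold change then was 0.904 to 1.1 times the value given here. Passing with set 1 included favours genes whose sets agree, so this is no independent support for the 20. Without set 2 the smallest adjusted p among them was 0.0647.

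To say which genes return to the control level, the 394 genes that changed with TNF-a in PLKO cells by a log2 fold change of at least 1 (201 rose and 193 fell) were followed into shTon_TNF. They were picked with the PLKO_CTR libraries that the comparison uses again, so their agreement in direction with TNF-a is no independent result. They were picked for a large change in the PLKO_TNF libraries as well, and this choice alone favours values in shTon_TNF that lie nearer the control than those in PLKO_TNF. It favours movement toward the control between the TNF-a groups too, and each such difference given for these genes below carries that limit. Of the 394, 18 were still off the control level, which means that they passed in shTon_TNF against PLKO_CTR in the direction of TNF-a (14 of those that rose and 4 of those that fell). A further 57 were back near it, which means that they did not pass and had an absolute log2 fold change under 0.5 (32 and 25). None of the 394 passed in the direction opposite to TNF-a in the fit on 6 libraries, and the other 319 met neither rule. With all 12 libraries 312 genes responded, of which 183 were still off, 47 near and 0 past the control level. Adamts2, Pappa and Sulf2, named after their values were seen, passed in that fit in opposite directions in both comparisons (0.70, 0.84 and 0.53 in shTon_TNF, -0.75, -0.92 and -0.91 in PLKO_TNF), with changes too small to count among the 312. Near is a class of size, not of equality, and for 25 of the 57 the limma 95% interval lay within -1 to 1.

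**Figure D2:**
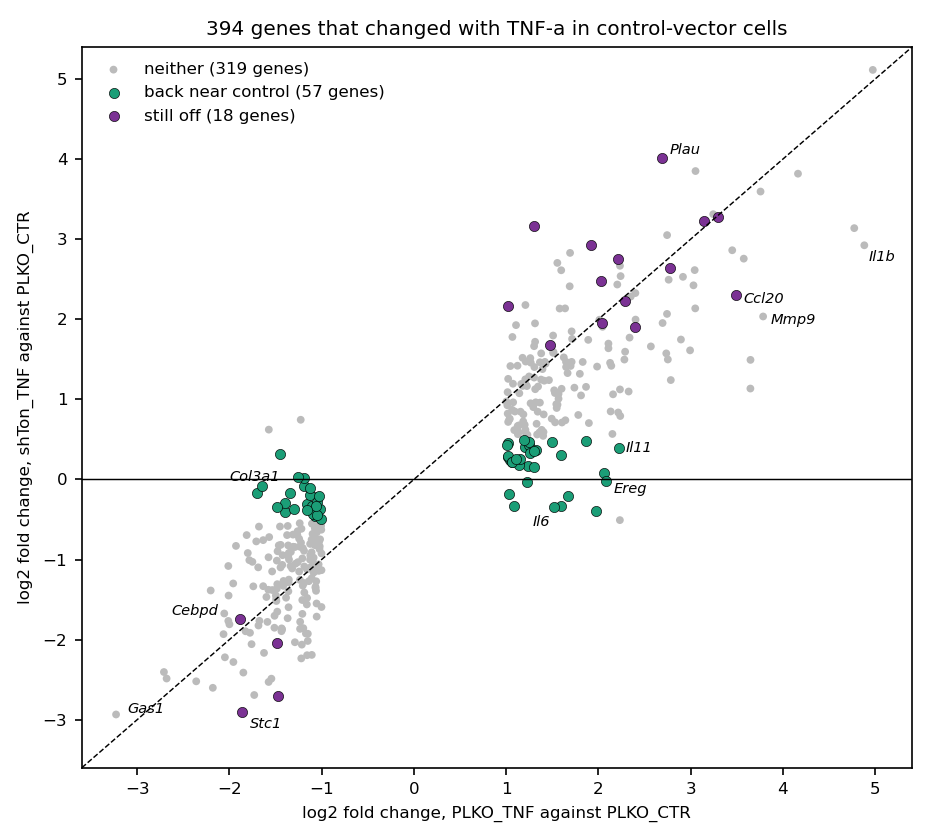
Each point is 1 of the 394 TNF-a-responding genes, with its log2 fold change in PLKO_TNF (x axis) and in shTon_TNF (y axis), both against the same PLKO_CTR libraries. The dashed line marks equal change and the horizontal line the control level; 57 genes lie near the control level (green), 18 are still off (purple) and 319 met neither rule (grey).

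Interleukin and growth factor genes were among the rises that ended near the control level. Il11, a cytokine of the IL-6 family, had 3473, 3959 and 156 normalised reads in sets 1 to 3 of PLKO_CTR, 6503, 31924 and 1049 in PLKO_TNF, 641, 1295 and 35.1 in shTon_CTR and 2299, 8713 and 241 in shTon_TNF. It rose in PLKO_TNF by 2.22 (adjusted p = 0.0183), whereas in shTon_TNF it lay 0.39 from the control (95% interval -0.43 to 1.20), and the difference between the TNF-a groups was -1.83 (SE 0.18, adjusted p = 0.0242). The sets scatter on both sides of the control (log2 ratios -0.60, 1.14 and 0.62). Without set 1, which holds the library whose Nfat5 goes against its label, the estimate was 0.88 (adjusted p = 0.0113, limma). By the rule Il11 then counts as off the control level, but that fit has 1 residual degree of freedom and passed 1818 genes. Ereg, which encodes the EGF receptor ligand epiregulin, had 1769, 443 and 448 in PLKO_CTR, 4836, 2513 and 2205 in PLKO_TNF, 584, 329.8 and 143 in shTon_CTR and 1639, 619.5 and 330.1 in shTon_TNF. It stood -0.02 from the control (interval -0.57 to 0.53) and -2.11 from PLKO_TNF (adjusted p = 0.0242), and it was below PLKO_TNF in every set. Without set 1 it stood 0.02 from the control.

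Il6, the central fever and acute-phase cytokine, had 1187, 978 and 249 normalised reads in PLKO_CTR, 1437, 3636 and 1518 in PLKO_TNF, 190.3, 372 and 84.6 in shTon_CTR and 400.1, 815 and 444 in shTon_TNF. In shTon_TNF it was below PLKO_TNF in each set, with -1.92 (SE 0.16, adjusted p = 0.02). Against PLKO_CTR it was lower in sets 1 and 2 and higher in set 3 (-1.57, -0.26 and 0.83; estimate -0.33, interval -1.38 to 0.71, and 0.29 without set 1). It is named, like Nampt and Csf3 below, after its values were seen. In each set Il6, Il11 and Ereg were lower in shTon_CTR than in PLKO_CTR and higher in shTon_TNF than in shTon_CTR. These differences are read from the values and were not tested here.

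The other rises named here that ended near the control level belong to enzymes and a surface protein. Hmox1, heme oxygenase, which breaks down heme, rose with TNF-a in PLKO cells (1.67) and had 2653, 1354 and 1144 in PLKO_CTR against 2649, 1188 and 843 in shTon_TNF (-0.21, interval -0.64 to 0.22). It lay below PLKO_TNF in every set, but that difference did not pass (-1.88, adjusted p = 0.0726, and 0.0176 in the fit on 12 libraries). Akr1b8, an aldo-keto reductase gene with near-identical relatives and thus of uncertain read assignment, had 35911, 2616 and 4155 in PLKO_CTR, 50039.8, 19269 and 29309 in PLKO_TNF and 16497, 4948 and 5694 in shTon_TNF, and passed between the TNF-a groups (-1.98, adjusted p = 0.0281). Its distance from the control differed among sets (-1.12, 0.92 and 0.46), and without set 1 it was 0.69, no longer near the control level. Nampt, the gene of the enzyme that starts NAD salvage, lay -0.33 from the control and -1.42 from PLKO_TNF (adjusted p = 0.0281). Plet1, a surface protein gene, lay at -0.39 and -2.37 (adjusted p = 0.0356) and Cyp7b1, an oxysterol hydroxylase gene, at 0.49 and -1.38 (adjusted p = 0.125).

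Genes that fell with TNF-a and stood near the control level in shTon_TNF include a main fibril collagen. Col3a1, type III collagen, had 16790.1, 21422 and 2089 normalised reads in PLKO_CTR, 8155, 6243 and 432 in PLKO_TNF, 36073, 38530.3 and 2924 in shTon_CTR and 22014, 25612 and 929.6 in shTon_TNF. In each set it was highest in shTon_CTR, and shTon_TNF was above PLKO_TNF (1.52, SE 0.21, adjusted p = 0.0356). Against PLKO_CTR it was higher in sets 1 and 2 and lower in set 3, the set nearly free of muscle transcripts, whose part in this was not tested (0.39, 0.26 and -1.17; estimate -0.17, interval -1.0 to 0.66). P2ry6, a receptor for extracellular UDP, had 98.6, 581 and 441 in PLKO_CTR, 40.8, 144 and 204 in PLKO_TNF and 130.2, 504 and 754 in shTon_TNF. It lay 0.32 from the control (interval -0.26 to 0.91) and 1.78 from PLKO_TNF (adjusted p = 0.0242). The others named by size of their fall with TNF-a were Mal2, an apical transport protein gene (-1.64 in PLKO_TNF and -0.08 in shTon_TNF), Rgcc, a cell-cycle regulator gene (-1.48 and -0.34), Mtss1l (-1.40 and -0.41) and the protocadherin gene PCDHA2 (-1.39 and -0.30). None of these 4 passed between the TNF-a groups, and in Mtss1l the estimate averages a set 1 ratio of 1.51 with -1.12 and -1.62, so that without set 1 it was -1.37 (adjusted p = 0.00231, with 1 residual degree of freedom). Of the 57 genes near the control level 29 were near it without set 1 as well, 9 then stood off it, 11 met neither rule and 8 no longer counted as responding to TNF-a. The loss is not particular to set 1, since 32 of the 57 were near it without set 2 and 26 without set 3.

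**Figure D3:**
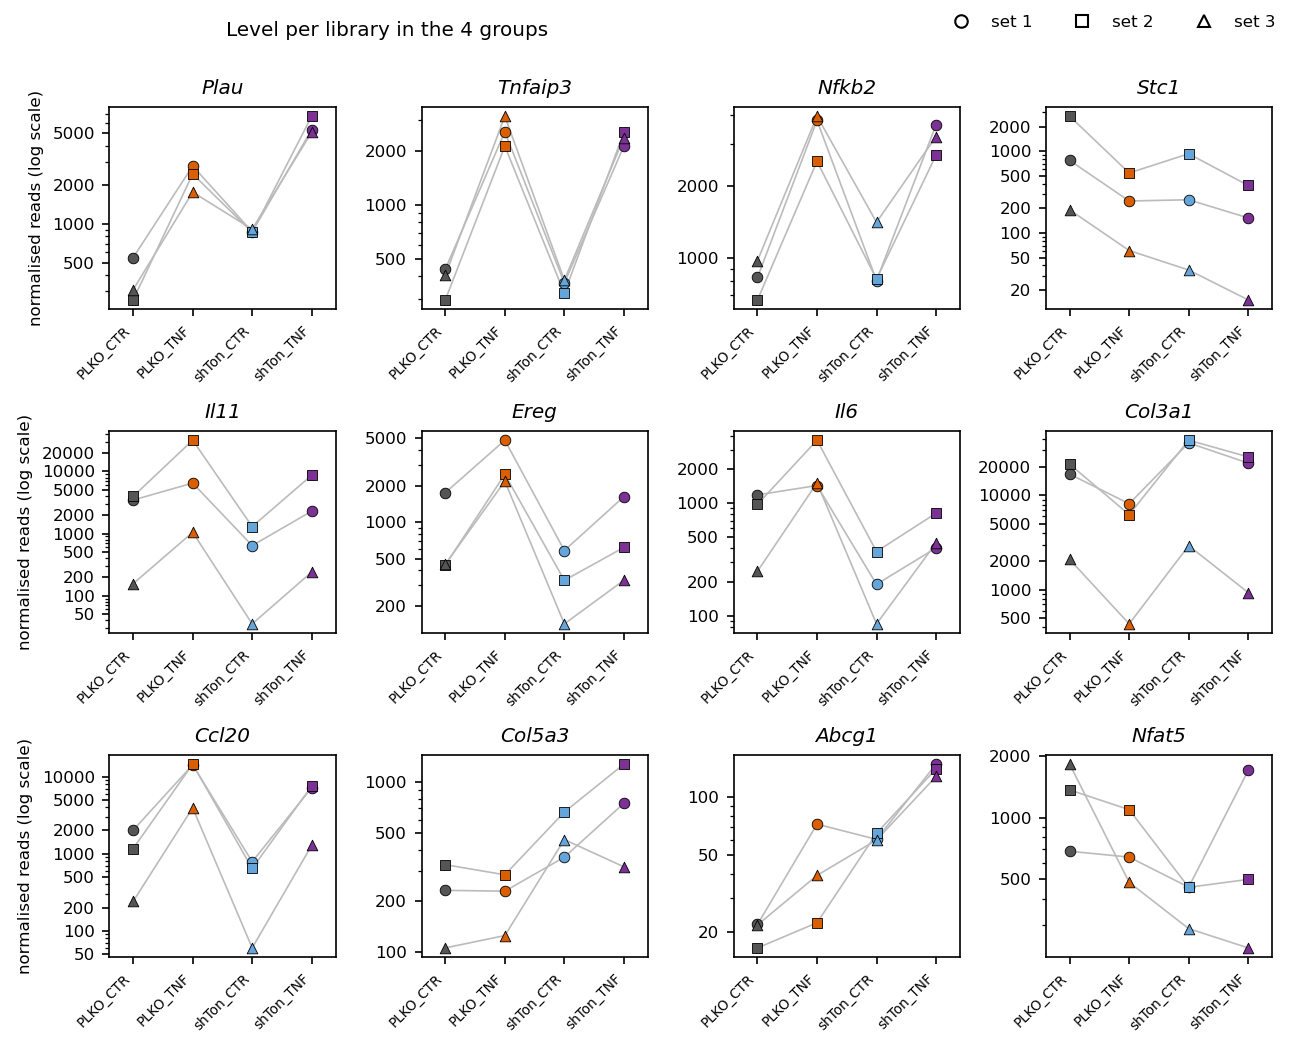
Normalised reads per library (log scale, y axis) in the 4 groups, with sets 1 to 3 as circles, squares and triangles joined by grey lines. Plau, Tnfaip3 and Nfkb2 are high in both TNF-a groups, Il11, Ereg and Il6 are lower in shTon_TNF than in PLKO_TNF in each set, Col3a1 is higher there, and Nfat5 in the library labelled shTon_TNF set 1 is above its control.

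Chemokine genes that responded to TNF-a were either still off the control level (2 of 9) or met neither rule (7 of 9), and 0 were near it. Of 17 chemokine genes tested against PLKO_CTR, 2 rose and 0 fell, with a median of 0.81, while the same genes had a median of 1.19 with TNF-a alone and -0.77 between the TNF-a groups (over all genes tested the medians were 0.01, -0.01 and 0.02). At an unadjusted p under 0.05, 6 were higher than in PLKO_CTR and 1 was lower (7.11% and 7.71% of all genes). The fit on 12 libraries passed 4 and 1 (3.94% and 4.21%), edgeR 2 and 0 (0.146% and 0.0325%), and DESeq2 5 and 1 (1.98% and 1.87%). These shares of all genes also stand behind the counts of every list that follows, and a count near its share is no result about the list. Cxcl2, a neutrophil attractant with near-identical relatives, had 2436, 1431 and 366 normalised reads in PLKO_CTR, 7469, 39326 and 8614 in PLKO_TNF and 2482, 7256 and 1584 in shTon_TNF. It passed lower between the TNF-a groups (-2.16, adjusted p = 0.0242, but 0.0614 in the fit on 12 libraries), with 1.49 against the control (adjusted p = 0.228). Without set 1 Cxcl2 stood further from the control, at 2.23. Ccl3, a monocyte attractant whose reads may also be shared with relatives, passed lower there as well (-2.51, adjusted p = 0.0283) and had 1.14 against the control (adjusted p = 0.354). Both were named after their values were seen. Cxcl3, another relative of Cxcl2, lay 1.95 above the control and Cxcl12, a homing chemokine gene, at -2.20, and neither passed (adjusted p = 0.0872 and 0.166).

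Of 18 cytokine and colony-stimulating factor genes none passed against PLKO_CTR in limma on 6 libraries or in edgeR, 6 were higher and 1 lower at an unadjusted p under 0.05 and with DESeq2, and 6 were higher and 0 lower in the fit on 12. The list median was 0.43 against the control and -0.76 between the TNF-a groups. Of its 10 genes that responded to TNF-a, 3 were near the control level (Il6, Il11 and Clcf1) and 7 met neither rule. Without set 1, in a fit with 1 residual degree of freedom, Il11 and Clcf1 (0.76, adjusted p = 0.0306) counted as off it. In the fit on 12 libraries 6 of the 10 were still off, 3 near and 1 neither. Il1b, the main pyrogenic interleukin, had 28.3, 10.6 and 0 normalised reads in PLKO_CTR, 432, 549.6 and 35.5 in PLKO_TNF and 68.3, 95.2 and 21.2 in shTon_TNF. Every shTon_TNF library but that of set 3 lay above all PLKO_CTR libraries and each was below the PLKO_TNF library of its set (2.92 against the control, adjusted p = 0.142, and -1.96 against PLKO_TNF, adjusted p = 0.0747). Il23a, a subunit of IL-23, had 3.14 and -1.64, Il1a 2.76 and -0.82, and Csf2, the gene of GM-CSF, 3.60 and -0.16. None of these values passed in the fits on 6 libraries. Csf3, the gene of G-CSF, passed lower than in PLKO_TNF (-1.54, adjusted p = 0.0356, but 0.164 in the fit on 12 libraries). It lay 1.24 above the control, and 2.04 without set 1.

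Among 9 survival and adhesion genes none passed against PLKO_CTR in limma or edgeR, while 3 were higher and 0 lower at an unadjusted p under 0.05, in DESeq2 and in the fit on 12 libraries. Bcl2a1 and Birc3, which block cell death, had 2.14 (adjusted p = 0.118) and 1.91 (adjusted p = 0.0614). The leukocyte adhesion genes Icam1 and Vcam1 had 0.96 and 0.49, and the Vcam1 ratios ran from 1.06 in set 1 to -0.18 in set 3. Of 18 mediator enzyme genes 1 rose (Ass1, above) and 0 fell, with 7 higher and 3 lower at an unadjusted p under 0.05, 1 and 0 passing with edgeR, 4 and 2 with DESeq2 and 5 and 2 in the fit on 12 libraries. Ptgs2, the inducible prostaglandin synthase gene, had 1.5 (adjusted p = 0.225), Nos2, inducible nitric oxide synthase, 1.52 (0.188) and Hpgd, which breaks prostaglandins down, -1.81 (0.117).

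Of 34 matrix protease and inhibitor genes 2 rose, Plau and Serpinb2, and 0 fell, with a median of 0.43 against 0.07 for TNF-a alone. At an unadjusted p under 0.05, 15 were higher and 1 lower, edgeR passed 2 and 0, DESeq2 11 and 1, and the fit on 12 libraries 12 and 1, where the 1 lower was Mmp16 (-1.03), a membrane-type metalloprotease gene named after its value was seen. Mmp12, macrophage elastase, had 33.3, 1.51 and 9.36 normalised reads in PLKO_CTR and 379, 276 and 351 in shTon_TNF. The groups do not overlap, but the estimate of 5.11 did not pass (SE 0.60, adjusted p = 0.0614, and 0.00367 in the fit on 12 libraries). Mmp9, a gelatinase gene, had 212, 108 and 158 in PLKO_CTR, 2362, 1142 and 3581 in PLKO_TNF and 1265, 509.6 and 392 in shTon_TNF, that is 2.04 (adjusted p = 0.0803) against the control and -1.75 (adjusted p = 0.103) against PLKO_TNF. The collagenase gene Mmp13 and the stromelysin genes Mmp3 and Mmp10, named after their values were seen, were above PLKO_CTR and below PLKO_TNF in every set, at 1.57, 1.5 and 1.61 from the control and -1.16, -1.25 and -1.38 from PLKO_TNF, and none of these values passed in the fits on 6 libraries.

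Of the 20 genes that passed, Col5a3 and Abcg1 did not pass with TNF-a alone (0.01, adjusted p = 0.975, and 0.97, adjusted p = 0.0964, limma). Abcg1 was nonetheless higher with TNF-a alone in each set. Col5a3, a chain of type V collagen, had 229.8, 326 and 105 normalised reads in PLKO_CTR, 227, 284 and 124 in PLKO_TNF, 361, 666 and 458 in shTon_CTR and 750.1, 1276 and 316 in shTon_TNF. Both shTon groups lay above the PLKO libraries of their set, and the gene passed against PLKO_CTR (1.75, SE 0.19, adjusted p = 0.0444) and against PLKO_TNF (1.74, SE 0.20, adjusted p = 0.0281). Abcg1 had 22.0, 16.6 and 21.9 in PLKO_CTR, 72.2, 22.4 and 39.3 in PLKO_TNF, 60.3, 64.8 and 59.9 in shTon_CTR and 147, 139 and 127 in shTon_TNF. With all 12 libraries 695 of the 1003 genes that passed had not passed with TNF-a alone, 303 higher and 392 lower, and 179 of these 695 also passed in the same direction between the TNF-a groups. Of all genes in that fit 5.65% passed with TNF-a alone and 3.61% between the TNF-a groups. Both shTon_TNF comparisons use the same shTon_TNF libraries. A gene off PLKO_CTR but little moved by TNF-a is then off PLKO_TNF by construction, so the 179 are no independent support.

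Several genes that passed between the TNF-a groups had likewise not passed with TNF-a alone. Wnt11, a non-canonical Wnt ligand too low to be tested with TNF-a alone, had 11.9, 4.53 and 8.32 normalised reads in PLKO_CTR, 11.1, 5.34 and 16.5 in PLKO_TNF and 57.6, 39.3 and 121 in shTon_TNF. The groups do not overlap, at 2.92 from the control (adjusted p = 0.0803) and 2.58 from PLKO_TNF (adjusted p = 0.0356). Lpl, lipoprotein lipase, which was at or near 0 in all set 3 libraries, had 5894, 1961 and 3.12 in PLKO_CTR, 5098, 976 and 7.61 in PLKO_TNF and 1785, 252 and 0 in shTon_TNF (-2.24, adjusted p = 0.0644, and -2.19, adjusted p = 0.0356). Ftl1, the ferritin light chain, which has near-identical relatives, had 2072, 670.3 and 2181 in PLKO_CTR and 737, 274 and 806 in shTon_TNF (-1.40, adjusted p = 0.0614, and -1.23, adjusted p = 0.0356), and was lower in each set. Adamts12, a metalloprotease gene, and Lrrc32, which anchors latent TGF-beta, were 1.17 and 1.72 above PLKO_TNF and 1.21 and 1.86 above PLKO_CTR, of which only the former passed. Sacm1l, a phosphoinositide phosphatase gene, was -1.43 from PLKO_TNF (adjusted p = 0.0319) and -1.24 from PLKO_CTR (adjusted p = 0.0912). Lpl, Adamts12, Lrrc32 and Sacm1l were named after their values were seen.

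Of 36 fibrillar matrix genes 1 rose (Col5a3) and 0 fell, and the median was -0.13 against the control, -0.33 with TNF-a alone and 0.44 between the TNF-a groups. At an unadjusted p under 0.05, 9 of the 36 were higher and 3 lower, against 7.11% and 7.71% of all genes. With edgeR 1 and 0 passed and with DESeq2 5 and 1. In the fit on 12 libraries 7 were higher than the control and 1, Loxl3, a lysyl oxidase gene named after its value was seen, was lower (-0.85). P4ha3, a collagen prolyl hydroxylase gene, had 1.49 (adjusted p = 0.0989), Fbln2, which encodes fibulin-2, 1.20 (0.134) and Loxl4, a lysyl oxidase gene, 1.18 (0.0803), each higher in 3 of 3 sets.

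**Figure D4:**
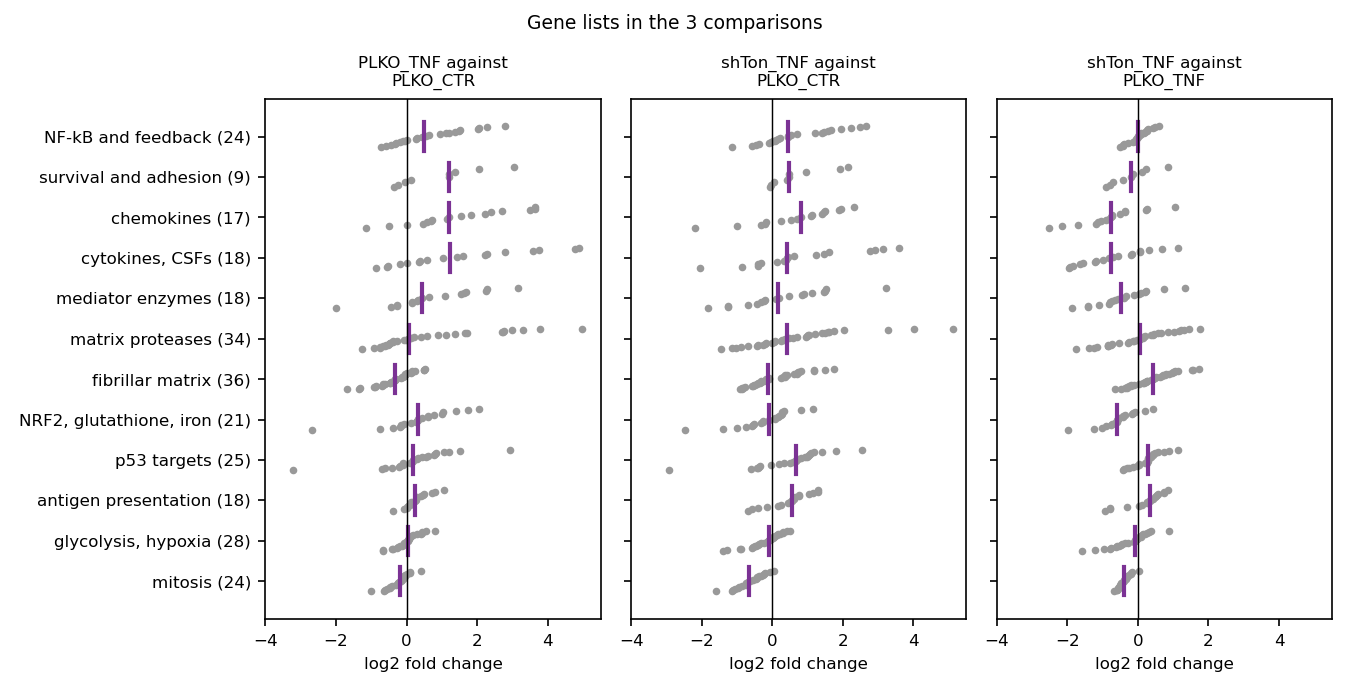
Log2 fold change (x axis) of the tested genes of 12 lists, 1 grey point per gene and the list median in purple, in the 3 comparisons; numbers in brackets count the genes tested. Chemokine and cytokine medians are positive against PLKO_CTR and negative between the TNF-a groups, and that of the mitosis genes is -0.66 in shTon_TNF against PLKO_CTR.

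None of the p53, mitosis, DNA replication, NRF2, glycolysis and antigen presentation genes passed in limma on 6 libraries or in edgeR, and the counts at an unadjusted p under 0.05 and with DESeq2 are given for each list. Of 25 p53 target and apoptosis genes 17 were higher in 3 of 3 sets and 5 lower, against 18.6% and 20.1% of all genes, and the median was 0.66. At an unadjusted p under 0.05, 15 were higher and 2 lower, DESeq2 passed 7 and 1, and the fit on 12 libraries 11 and 1. Gdf15, a stress cytokine gene, had 2.53 (SE 0.49, adjusted p = 0.118), Btg2, an antiproliferative gene, 1.80 and Fas, a death receptor gene, 1.42, and all 3 had risen with TNF-a alone. Gas1, a growth-arrest gene, was the 1 lower (-2.94, adjusted p = 0.0988). Of 24 mitosis genes 13 were lower in 3 of 3 sets and 0 higher, with a median of -0.66 (-0.18 with TNF-a alone), 0 higher and 11 lower at an unadjusted p under 0.05, 0 and 1 with DESeq2 and 0 and 4 in the fit on 12 libraries. Cenpf, a kinetochore protein gene, had 424, 768 and 1876 normalised reads in PLKO_CTR and 391, 249 and 227 in shTon_TNF, with ratios of -0.12, -1.62 and -3.04. The ratio is near 0 in set 1 and lowest in set 3, and the estimate of -1.59 did not pass (adjusted p = 0.246). Of 27 DNA replication genes 11 were lower in 3 of 3 sets, with a median of -0.30, 0 higher and 8 lower at an unadjusted p under 0.05 and 0 and 1 with DESeq2. Prim1, a primase gene, and Rrm1, of ribonucleotide reductase, were lower in the fit on 12 libraries (-0.93 and -0.67).

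Of 21 genes of NRF2 targets, glutathione and iron the median was -0.10 against the control, 0.33 with TNF-a alone and -0.58 between the TNF-a groups, with 2 higher and 4 lower at an unadjusted p under 0.05 and 1 and 3 with DESeq2. Txnrd1 was higher and Cdo1 and Ftl1 were lower in the fit on 12 libraries. Txnrd1, thioredoxin reductase, stood at 1.15 (adjusted p = 0.147) and Cdo1, which starts the breakdown of cysteine, at -2.49 (adjusted p = 0.0803). Of 28 glycolysis and hypoxia genes 12 were lower in 3 of 3 sets and 4 higher, with a median of -0.10, and in the fit on 12 libraries 6 were lower and 1 higher (Car9, a carbonic anhydrase gene, 0.49, named after its value was seen). At an unadjusted p under 0.05, 8 were lower and 1 higher, and with DESeq2 4 and 0. Bnip3, a mitophagy gene, had 1154, 919 and 680.4 in PLKO_CTR and 624, 464 and 369 in shTon_TNF, which do not overlap (-0.92, adjusted p = 0.111). Aldoc, an aldolase gene, had -1.29 and Pgam1, phosphoglycerate mutase, -0.87. Of 18 antigen presentation genes 11 were higher and 2 lower in 3 of 3 sets, with a median of 0.56 and a lowest value of -0.69. Those with the highest fold changes were Psmb10 (1.30) and Psme2 (1.30) of the immunoproteasome and Tapbp (1.15) and Tap1 (1.04) of peptide loading. In the fit on 12 libraries and with DESeq2 4 passed, which in the former were these 4, and 6 were higher and 0 lower at an unadjusted p under 0.05.

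Of 10 known TonEBP targets of the osmotic response 4 were lower and 2 higher in 3 of 3 sets, and the median was -0.28. None passed in limma on 6 libraries or in edgeR, 1 was higher and 2 lower at an unadjusted p under 0.05, DESeq2 passed 0 and 1, and the fit on 12 libraries 1 (Slc2a6) and 1 (Slc38a2). The amino acid transporter gene Slc38a2 had -0.78 (adjusted p = 0.188), the kinase gene Sgk1 -0.71 (0.195), the water channel gene Aqp1 -0.86 (0.395) and the sugar transporter gene Slc2a6 1.17 (0.175). Of the 9 nucleus pulposus genes 0 passed in limma on 6 libraries, 1 was higher and 3 lower at an unadjusted p under 0.05, 1 was higher in edgeR, and 1 was higher and 1 lower with DESeq2 and in the fit on 12 libraries (Ibsp, and Lgals3, the gene of galectin-3, at -0.98). Ibsp, bone sialoprotein, went from 30.1, 42.3 and 9.36 normalised reads in PLKO_CTR to 664, 1034 and 56.0 in shTon_TNF, with no overlap (3.82, SE 0.45, adjusted p = 0.0614, and 0.0113 in the fit on 12 libraries). Of 17 cartilage matrix genes 0 passed in limma on 6 libraries or in edgeR, 4 were higher and 1 lower at an unadjusted p under 0.05, DESeq2 passed 1 and 1, and the fit on 12 libraries 2 and 1. Hapln1, which links aggrecan to hyaluronan, lay at -2.17 (adjusted p = 0.147) and Has2, hyaluronan synthase, at 2.61 (adjusted p = 0.162), where the set ratios ran from 0.79 in set 1 to 4.41 in set 3.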

How the data were processed

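RNA-seq libraries of 4 groups of 3 were used. Each of 3 deposited tables holds gene signal values that the authors had normalised (read counts divided by 1 factor per library), with their log2 fold change and adjusted p-value for 1 comparison. Novoalign 2.08.01, DESeq2 and the build rn5 are named, per the submitters' processing notes; which program counted the reads, and whether by strand, is not given in the sources used. Whole reads were recovered by dividing each deposited column by its smallest value above 0, within a tolerance of 0.001 for 100% of values. The 12899 genes common to the tables were scaled together over 12 libraries with DESeq2 size factors. The authors' log2 and p-value columns are used here only for Nfat5 between the TNF-a groups.

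Each comparison was fitted to its 6 libraries in limma 3.58.1 (R 4.3.3) on log2(normalised reads + 1), with the set as a block, a mean-variance trend and a mean of at least 10, at a Benjamini-Hochberg adjusted p under 0.05. Scripts were tested on simulated data. Sets pair the samples, since same-set libraries of shTon_TNF and PLKO_CTR deviated together from their group means (r 0.609 to 0.739 over genes, for 3 pairs) and different sets did not (-0.607 to 0.148). Deviations from a group mean cancel within the group, so the second range follows in part from the first. edgeR 4.0.16, DESeq2 1.42.0, other scalings, filters, pseudocounts and left-out sets were alternatives. Depth, 7160042 to 16861613 reads per library here, limits low genes most. Named genes are the 10 highest and 10 lowest that passed, the 6 largest rises and 6 largest falls with TNF-a that ended near the control, genes passing the same way in both shTon_TNF comparisons, and the 4 largest changes of each list; others are said to be named after their values were seen, and some that the rule picks are not reported here. The comparison, gene lists and rules were chosen with earlier results of these data known.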

Additional observations from a re-analysis of the deposited data

How the results depend on the processing

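Counts of genes moved with the fit, the scaling and the sets included. None of the 20 genes that passed in shTon_TNF against PLKO_CTR changed direction under any setting run, but this is no support for them. Leaving out the block or the trend, or fitting all 12 libraries, keeps the fold change itself the same. Passing also favours genes whose sets agree, so leaving out a set could hardly turn the direction. For shTon_TNF against PLKO_CTR the count of 20 became 2 without the replicate block (Plau and Tnfaip3), 1003 with all 12 libraries, 1409 with those but the library labelled shTon_TNF set 1, 0 without the mean-variance trend (1772 at an unadjusted p under 0.05 in limma), 58 with total-read scaling, 474 with DESeq2 and 0 to 1818 with 1 set left out. For TNF-a alone the count of 1221 became 0 without the block (785 at an unadjusted p under 0.05), 696 with 12 libraries, 122 without the trend and 746 to 1563 with 1 set left out, and total-read scaling moved its share of higher genes from 51.5% to 36.5%. Between the TNF-a groups the count of 31 became 0 without the block (775 at an unadjusted p under 0.05), 444 with 12 libraries, 296 with those but the library labelled shTon_TNF set 1, 12 with a pseudocount of 0.1, 0 without the trend (1873 at an unadjusted p under 0.05), 375 with DESeq2 and 99 to 643 with 1 set left out. Of TNF-a-responding genes 57 were near the control level, but 0 without the block (none responded), 11 without the trend, 28 with a limit of 0.3 and 163 with a limit of 1. The 18 still off it became 0 without the block or the trend, 183 with 12 libraries, 212 with those but the library labelled shTon_TNF set 1, 47 with total-read scaling, 189 with DESeq2 and 0 to 406 with 1 set left out. The cause of these moves was not tested. Among the 20 genes Nfkbia did not pass with edgeR (adjusted p = 0.0554) or a pseudocount of 0.1 (0.0504), nor Col5a3 with the latter (0.0516), and without the trend the adjusted p of the 20 was 0.0996 to 0.101. With 2 residual degrees of freedom a miss shows little about a gene.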

Other observations

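Several gene groups not described above held no gene that passed in limma on 6 libraries or in edgeR, but some that did in the fit on 12 libraries. Of all genes 3.94% were higher and 4.21% lower in that fit, 7.11% and 7.71% at an unadjusted p under 0.05, and 1.98% and 1.87% with DESeq2. Of 22 interferon genes 3 were higher there, Gbp5 and Gbp2, which encode guanylate-binding proteins (2.13 and 1.78), and Irf1, a transcription factor gene (1.72), and 3 were lower, among them Ifi27 and Ddx58 (-0.51 and -0.94). Ifit3, an antiviral gene, stood at -1.79 and did not pass in either fit (adjusted p = 0.406 and 0.177). At an unadjusted p under 0.05, 3 interferon genes were higher and 4 lower, and with DESeq2 3 and 1. Of 27 BMP and TGF-beta genes 2 were higher and 2 lower in the fit on 12 libraries, among them Inhba, the activin A subunit gene, with 2472, 3059 and 1003 normalised reads in PLKO_CTR and 6229, 23267 and 10294 in shTon_TNF (2.54, adjusted p = 0.0887 on 6 libraries and 0.00225 on 12), and Id2, a BMP target gene (-1.35). The others were Smad7 (0.60) and Tgfb3 (-1.10). The counts at an unadjusted p under 0.05 were 5 and 4, and with DESeq2 1 and 2.

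Of 39 growth factor and ERK or AP-1 genes 1 fell (Stc1) and 0 rose, with 9 higher and 6 lower at an unadjusted p under 0.05, 0 and 1 with edgeR, 6 and 4 with DESeq2 and 7 and 3 in the fit on 12 libraries. Igfbp3, which binds insulin-like growth factors, had 2.86 and Fosl1, an AP-1 subunit gene, 1.42. Of 26 Wnt, Notch and hedgehog genes 0 passed on 6 libraries or with edgeR, 8 were higher and 6 lower at an unadjusted p under 0.05, 3 and 3 with DESeq2 and 6 and 4 in the fit on 12 libraries. Lgr5, a receptor of R-spondins, had -3.07 with set ratios of -1.36, -2.80 and -5.06. The mitochondrially encoded genes had a median of 0.76 over 11 genes, both against PLKO_CTR and against PLKO_TNF, and Mt-nd2 was the 1 that passed in the fit on 12 libraries (1.48). The smooth muscle and contractile genes had a median of -0.63 over 13 genes, with 0 higher and 4 lower at an unadjusted p under 0.05.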
